A study of Mus musculus with 16 samples.

Results

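Cd80, Cd86, Cd40 and Cd83 encode surface proteins with which antigen-presenting cells signal to T cells. They were followed here in sorted cells of the mouse thymus. All probe sets of the array whose annotated symbol was one of these 4 genes were taken, which gave 7 of the 12488 probe sets. Cd80, Cd86 and Cd83 each had a pair of them and Cd40 had 1. The brighter probe set of a gene stands for it below: 93906_s_at for Cd80, 102831_s_at for Cd86, 92962_at for Cd40 and 103040_at for Cd83. The other sets were 93905_at for Cd80, 102830_at for Cd86 and 99434_at for Cd83. The suffix _s_ of the brighter Cd80 and Cd86 sets marks probes shared with similar sequences. All 7 exceeded a signal of 17.3, the 40th percentile of all values, on at least 2 arrays and were tested.

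CD80 and CD86 bind CD28 on T cells, which supports their activation, and CTLA4, which restrains it. CD40 is a receptor of the tumour necrosis factor family whose ligand sits on activated T cells and which signals through TRAF adaptors to NF-kB. In the thymic medulla, CD40 acts beside RANK and the lymphotoxin beta receptor in the growth and maturation of epithelial cells. CD83 marks mature dendritic cells and steadies MHC class II on the cell surface. In mice it is needed in thymic epithelium, mainly that of the cortex, for the selection of CD4 T cells.

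The series held 16 arrays, 2 for each of 8 groups. Epithelial cells of the thymic medulla (mTEC) of AIRE k/o mice (AIRE-ko), and likewise those of wild-type (WT) mice, were sorted into fractions with high (CD80hi) and low (CD80lo) CD80. The other groups, all WT, were mTEC not divided by CD80, epithelial cells of the cortex (cTEC), and the dendritic cells (tDC) and macrophages (tMPh) of the thymus. The labels give no strain, age, sex, knockout allele or gate beyond these, nor whether a group's arrays hold RNA of different animals, so p-values measure the spread between these samples, which may be technical. With 2 arrays a group, the number of arrays limits the precision. The RNA came from many cells at once, so fewer cells of a type and less RNA per cell cannot be told apart.

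Each value is a linear signal in the deposited units, with the 2%-trimmed mean of every array at 100.1. The highest signal on an array lay between 8598 and 13671 on CD80-sorted arrays, between 2518 and 3524 on the other arrays numbered 1 and between 4788 and 5630 on the other arrays numbered 2. Differences are therefore also given within each number where undivided groups were compared. Aire gave 1589 and 1385 in AIRE-ko CD80hi mTEC and 1829 and 1704 in WT CD80hi mTEC. Its probe set is not placed relative to the deleted part, so it checks nothing about the genotype.

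Marker genes were summed on each array to check the labels. Medullary markers (7 of 9 on the array) summed to 1167 to 5420 in the mTEC groups, 200.2 to 318.3 in cTEC, 116.1 to 120.2 in tDC and 92.4 to 162.5 in tMPh, although Krt5 and Krt14 lay at or below 17.3 on both arrays of 4 of the 5 mTEC groups (Krt14 alone in AIRE-ko CD80lo mTEC). Cortical markers (6 of 9) were highest in cTEC, dendritic cell markers (8 of 12) in tDC, and macrophage markers (12 of 12) in tMPh. Thymocyte markers (10 of 11) summed to 3605 to 6682 in cTEC, 2529 to 2655 in tDC and 2666 to 5949 in tMPh, against 267.1 to 1209 in the mTEC groups.

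Cd80 transcript followed the sort on CD80 protein. Its signal was 79.7 and 104.5 in AIRE-ko CD80hi mTEC, 61.3 and 87.5 in WT CD80hi mTEC, 9.5 and 13.7 in AIRE-ko CD80lo mTEC, and 13.7 and 6.6 in WT CD80lo mTEC. Undivided mTEC gave 40.3 and 30.4, cTEC 7.1 and 14.8, tDC 32.9 and 35.5, and tMPh 12.3 and 13.0. Both CD80hi groups lay above every other array and overlapped each other. Undivided mTEC and tDC also overlapped, and below them tMPh, cTEC and both CD80lo groups overlapped, all under 17.3. The second probe set gave the same upper order, with 78.8 and 68.4 in AIRE-ko CD80hi mTEC, 67.1 and 73.7 in WT CD80hi mTEC and 0.4 on both cTEC arrays, but its undivided mTEC arrays were as far apart as 67.7 and 20.5.

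Cd86 signal was highest in the haematopoietic groups and next highest in the CD80hi mTEC groups, as read by its brighter probe set. It gave 193.2 and 177.9 in AIRE-ko CD80hi mTEC, 103.2 and 122.5 in WT CD80hi mTEC, 5.4 and 20 in AIRE-ko CD80lo mTEC, and 22.8 and 14.7 in WT CD80lo mTEC. The signal was 57.4 and 50.3 in undivided mTEC, 17.6 and 21.3 in cTEC, 308.6 and 547.3 in tDC, and 306.1 and 785.2 in tMPh. Macrophages and dendritic cells overlapped, both CD80hi groups and undivided mTEC followed with no overlap, and cTEC and both CD80lo groups overlapped at the bottom. The second probe set was dimmer: it exceeded 17.3 on both arrays in tDC (46.0 and 34.3) and tMPh (25.9 and 79.5) and on no other array.

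Cd40 signal was bright in the CD80hi mTEC groups, in undivided mTEC and in the dendritic cell group. The arrays read 721.7 and 898.6 in AIRE-ko CD80hi mTEC, 653.3 and 772.3 in WT CD80hi mTEC, 113.0 and 148.7 in AIRE-ko CD80lo mTEC, and 226.2 and 165.3 in WT CD80lo mTEC. They read 592.1 and 666.6 in undivided mTEC, 265.5 and 216.3 in cTEC, 852.9 and 874.2 in tDC, and 89.9 and 59.2 in tMPh. The 4 brightest groups (tDC, both CD80hi groups and undivided mTEC) each overlapped their neighbour in that order, undivided mTEC stood clear of cTEC, cTEC overlapped WT CD80lo mTEC, and tMPh were lowest with no overlap.

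Cd83 had a different order, with the cortex near the top. Its signal was 734.1 and 659.8 in AIRE-ko CD80hi mTEC, 335.1 and 387.4 in WT CD80hi mTEC, 206.8 and 124.8 in AIRE-ko CD80lo mTEC, and 299.2 and 172.2 in WT CD80lo mTEC. Undivided mTEC had 287.8 and 201.0, cTEC 1510.4 and 1595.7, tDC 2136.8 and 1575.1, and tMPh 1352.6 and 1008.7. Dendritic cells and cTEC overlapped, and each array of cTEC, tDC and tMPh lay above every mTEC array. The dim second probe set ran from 4.1 to 70.4 over all 16 arrays, with cTEC again at the top (70.4 and 39.7) but overlapping the next group.

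**Figure D1:**
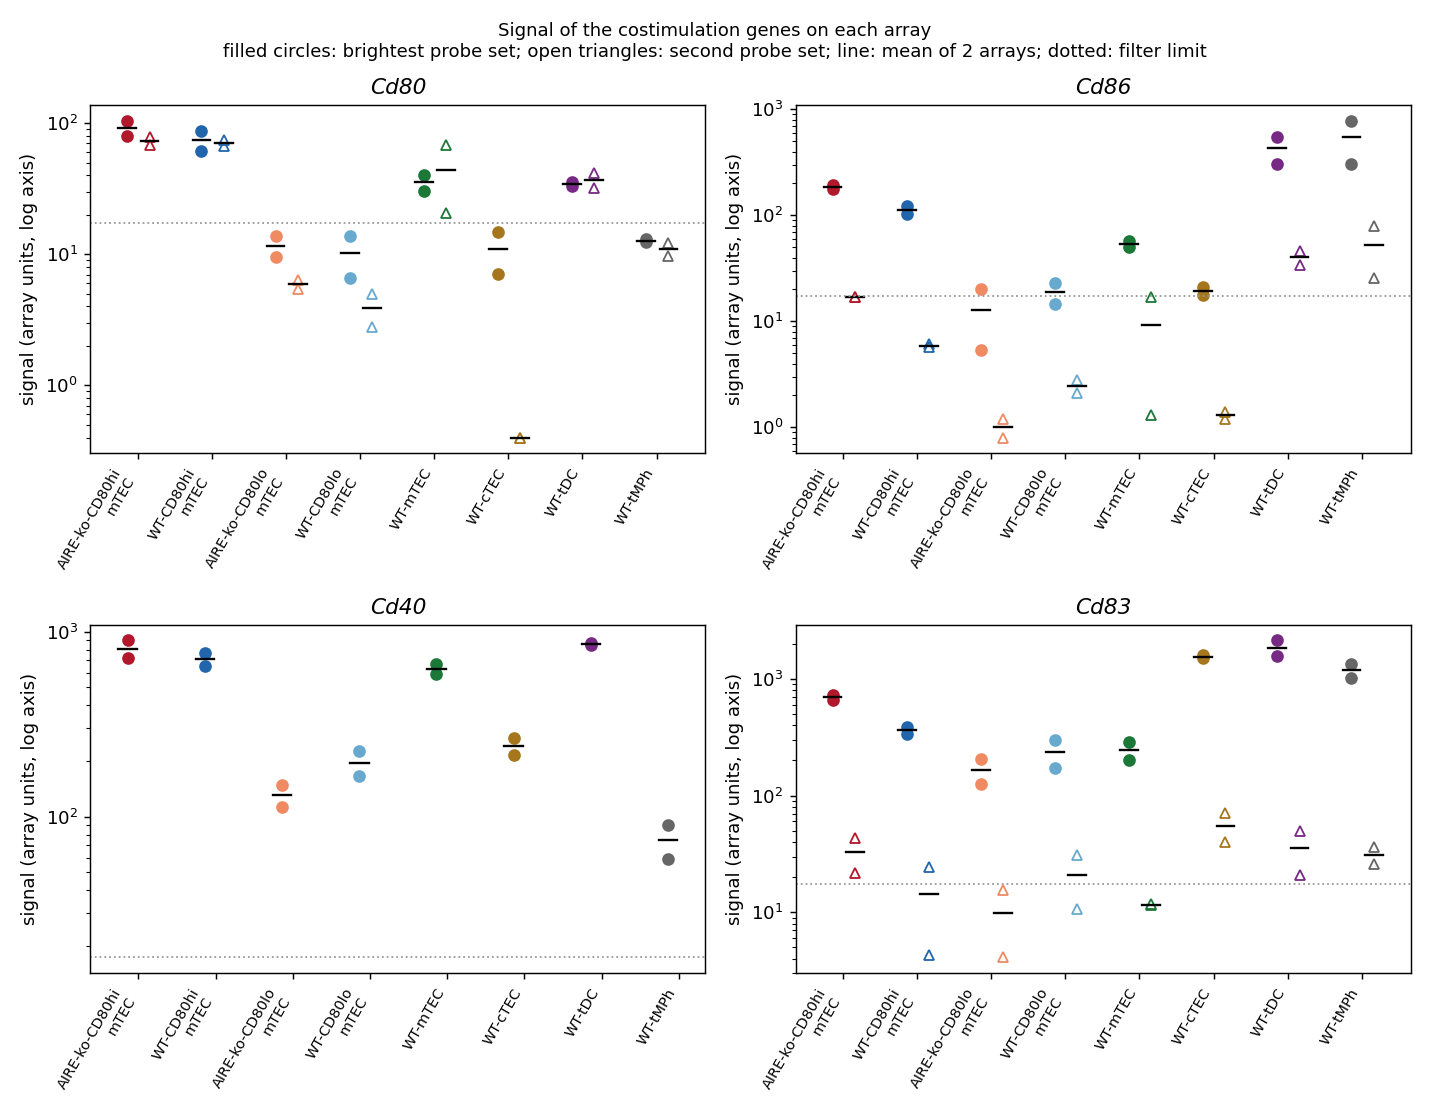
Signal of each gene on every array (log axis, array units) in the 8 groups, with filled circles for the brighter probe set, open triangles for the second one, a line at the mean of 2 arrays and a dotted line at 17.3. Cd80, Cd86 and Cd40 separate the CD80hi from the CD80lo groups, Cd40 is lowest in tMPh (89.9 and 59.2), and Cd83 is at 1008.7 or more in cTEC, tDC and tMPh and at 734.1 or less in every mTEC group.

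The first comparison asked how the genes differ between mature (CD80hi) and less mature (CD80lo) mTEC of WT mice. Cd86 averaged 112.9 ± 13.6 in CD80hi and 18.8 ± 5.73 in CD80lo mTEC (SD, n = 2 each), 6.02 times as high. Cd40 averaged 712.8 ± 84.1 in CD80hi and 195.8 ± 43.1 in CD80lo mTEC, 3.64 times as high. Both rose, with log2 fold changes of 2.34 ± 0.48 for Cd86 (adjusted p = 0.00439) and 1.85 ± 0.31 for Cd40 (adjusted p = 0.000985). A log2 fold change is the difference of mean log2(signal + 4.8), with the standard error of a limma fit over all arrays after ±, and its p is adjusted over the 9319 tested probe sets by Benjamini-Hochberg with a threshold of 0.05. The added 4.8 makes changes of dim probe sets smaller. Cd83 averaged 361.3 ± 37.0 in CD80hi and 235.7 ± 89.8 in CD80lo mTEC. Its arrays did not overlap, but the difference of 0.65 ± 0.35 did not pass (adjusted p = 0.294, 95% interval -0.10 to 1.41). With single arrays left out it ranged from 0.26 to 1.04 and did not pass. Cd80, which defined the sort, differed by 2.43, given without a test. Thus 2 of 3 tested genes rose, against 7.98% of all tested probe sets that rose and 4.74% that fell (12.7% either way). The Cd86 call was lost without CD80lo array 2 (2.09, adjusted p = 0.0570). The second probe set of Cd86 differed by 0.56 ± 0.55 (adjusted p = 0.646) at signals of 6.1 and 5.7 in CD80hi and 2.1 and 2.8 in CD80lo mTEC, and that of Cd83 by -0.53 ± 0.62 (adjusted p = 0.720).

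The same comparison in AIRE-ko mTEC passed for Cd86, Cd40 and Cd83. Cd86 averaged 185.6 ± 10.8 in CD80hi and 12.7 ± 10.3 in CD80lo mTEC, a log2 fold change of 3.58 ± 0.48 (adjusted p = 0.000220). Cd40 averaged 810.2 ± 125.1 in CD80hi and 130.9 ± 25.2 in CD80lo mTEC, a change of 2.59 ± 0.31 (adjusted p = 8.09e-05). Cd83 averaged 697.0 ± 52.5 in CD80hi and 165.8 ± 58.0 in CD80lo mTEC, a change of 2.08 ± 0.35 (adjusted p = 0.00122). All 3 tested genes rose, against 5.93% of all tested probe sets that rose and 6.87% that fell (12.8% either way). The sort marker Cd80 differed by 2.56. The second Cd86 set read 17.0 and 16.8 in CD80hi and 0.8 and 1.2 in CD80lo mTEC, all under 17.3. It passed (1.90 ± 0.55, adjusted p = 0.0342), a call lost without any 1 of the 4 arrays (adjusted p from 0.0965 to 0.134), with a constant of 17.3 (0.90, adjusted p = 0.0918) and in a fit of these groups alone (adjusted p = 0.0539). The second Cd83 set differed by 1.41 ± 0.62 (adjusted p = 0.171).

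The summed B cell and dendritic cell markers were higher in CD80hi than in CD80lo mTEC of both genotypes, and the summed macrophage markers were so in WT mTEC, while those of the AIRE-ko fractions overlapped. B cell markers (9 of 10 on the array) summed to 956.4 to 1175 in AIRE-ko CD80hi, 666.9 to 715.2 in WT CD80hi, 296.8 to 305.9 in AIRE-ko CD80lo and 309.4 to 321.0 in WT CD80lo mTEC. Much of that gap was Blk, a kinase of B cells, at 681.1 and 535.6 in AIRE-ko CD80hi mTEC and 213.0 and 192.6 in WT CD80hi mTEC, against at most 41.8 in the CD80lo groups. Fcer2a, Cd79b, Cd72 and the dim Cr2 were also higher on both CD80hi arrays than on both CD80lo arrays of either genotype. Fcer2a read 190.6 and 137.8 in AIRE-ko CD80hi and 57.5 and 108.8 in AIRE-ko CD80lo mTEC. In WT mTEC it read 206.9 and 205.8 in CD80hi and 118.8 and 73.7 in CD80lo cells. The remaining B cell markers did not separate so in both genotypes. The B cell receptor gene Cd22 was at or below 17.3 in all CD80-sorted groups. Dendritic cell markers summed to 3796 to 6935 in AIRE-ko CD80hi, 3439 to 3511 in WT CD80hi, 1188 to 1922 in AIRE-ko CD80lo and 1564 to 2061 in WT CD80lo mTEC. Zbtb46, Batf3, Irf8, Ccr7 and Fscn1 of that list were higher on both CD80hi arrays than on both CD80lo arrays of either genotype. Flt3 and Xcr1 were so in WT mTEC and overlapped between AIRE-ko fractions. The chemokine receptor gene Ccr7 read 214.0 and 285.0 in AIRE-ko CD80hi, 107.2 and 137.7 in WT CD80hi, 40.3 and 39.7 in AIRE-ko CD80lo and 63.6 and 31.8 in WT CD80lo mTEC. The integrin gene Itgax overlapped between fractions. It read 37.3 and 47.7 in AIRE-ko CD80hi, 46.0 and 61.8 in WT CD80hi, 41.7 and 23.6 in AIRE-ko CD80lo and 53.8 and 33.7 in WT CD80lo mTEC, against 1188 and 1296 in tDC. Macrophage markers summed to 952.5 to 1046 in AIRE-ko CD80hi, 1461 to 1784 in WT CD80hi, 806.4 to 1259 in AIRE-ko CD80lo and 612.8 to 701.9 in WT CD80lo mTEC, with Mertk at or below 17.3 on both arrays of all these groups. In WT mTEC, however, the lysozyme gene Lyz2 read 593.0 and 497.5 in CD80hi and 41.2 and 29.2 in CD80lo cells, the mannose receptor gene Mrc1 128.2 and 113.0 in CD80hi and 0.9 and 5.7 in CD80lo cells, and Csf1r 109.7 and 105.1 in CD80hi and 30 and 15.3 in CD80lo cells. Marco read 18 and 33.3 in CD80hi and 1.7 and 1.3 in CD80lo cells. Cd68, C1qa, C1qb, C1qc and the dim Adgre1 were also higher on both CD80hi arrays than on both CD80lo arrays of WT mTEC. The complement gene C1qb, for example, read 58.3 and 49.8 in CD80hi and 4 and 16.4 in CD80lo cells. Mertk, Fcgr1 and Cd14 overlapped between WT fractions. In AIRE-ko mTEC, Lyz2 read 534.9 and 361.4 in CD80hi and 161.9 and 184.3 in CD80lo cells. Mrc1 there read 55.4 and 169.6 in CD80hi and 2.9 and 3.4 in CD80lo cells, and Cd68 was also higher without overlap. Only Cd14 went the other way, at 154.7 and 172.2 in AIRE-ko CD80hi and 890.8 and 435.1 in AIRE-ko CD80lo cells. The other macrophage markers overlapped between AIRE-ko fractions. Cortical markers summed to 2544 to 2821 in WT CD80hi and 3922 to 5402 in WT CD80lo mTEC, and overlapped between AIRE-ko fractions. Of these, Ctsl and Cxcl12 were higher in CD80lo than in CD80hi mTEC of both genotypes, while Ly75 and Ccl25 were lower. Enpep and Foxn1 did not separate alike in both genotypes. Ctsl read 3006 and 4049 in WT CD80lo mTEC, against 1249 and 2960 in cTEC. Marker RNA made by mTEC and marker RNA of other cells in the fractions cannot be told apart here. The part of such other cells in the values of Cd86, Cd40 and Cd83 was not tested.

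The next comparison asked whether these genes differ by AIRE genotype in mTEC of the same CD80 label. Cd83 averaged 697.0 ± 52.5 in AIRE-ko CD80hi and 361.3 ± 37.0 in WT CD80hi mTEC, 1.93 times as high and without overlap. The log2 difference of 0.94 ± 0.35 had an unadjusted p of 0.0183 and did not pass after adjustment (adjusted p = 0.258, interval 0.19 to 1.70). Cd86 likewise did not overlap, at 185.6 ± 10.8 in AIRE-ko CD80hi and 112.9 ± 13.6 in WT CD80hi mTEC, with a difference of 0.70 ± 0.48 (adjusted p = 0.721, interval -0.33 to 1.72). Cd40 differed by 0.18 ± 0.31 (adjusted p = 0.969, interval -0.48 to 0.84). Cd80, whose protein defined both fractions, differed by 0.30 ± 0.37 (adjusted p = 0.922, interval -0.50 to 1.10). None of the 4 passed in limma, while 0.172% of all tested probe sets rose and 2.88% fell (3.05% together). An unadjusted p under 0.05 was reached by 1 of the 4 and by 1076 of the 9319 tested probe sets. These 2 CD80hi groups also differed in the sums of B cell, dendritic cell and macrophage markers given above.

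In CD80lo mTEC the differences between AIRE-ko and WT were -0.49 ± 0.35 for Cd83, -0.54 ± 0.48 for Cd86, -0.56 ± 0.31 for Cd40 and 0.16 ± 0.37 for Cd80. All adjusted p were between 0.989 and 0.999, and 0.322% of all tested probe sets were called (0.279% higher and 0.0429% lower). None of the 4 had an unadjusted p under 0.05, against 517 of the 9319 tested probe sets. Cd40 was the only one of the 4 brighter sets whose arrays did not overlap, with 113.0 and 148.7 in AIRE-ko CD80lo and 226.2 and 165.3 in WT CD80lo mTEC. The test of whether the CD80hi-minus-CD80lo difference itself differed, AIRE-ko minus WT, gave 1.43 ± 0.50 for Cd83 (adjusted p = 0.291, unadjusted p = 0.0125, interval 0.36 to 2.50), 1.24 ± 0.68 for Cd86 (adjusted p = 0.770) and 0.74 ± 0.43 for Cd40 (adjusted p = 0.835). The sort marker Cd80 gave 0.14, without a test. None of the 3 tested genes passed in limma, and 1.3% of all tested probe sets were called, all of them lower. An unadjusted p under 0.05 was reached by 1 of the 3 and by 775 of the 9319 tested probe sets. So the pass of Cd83 between fractions of AIRE-ko mTEC, where WT mTEC did not pass, is not shown to be a difference between genotypes.

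**Figure D2:**
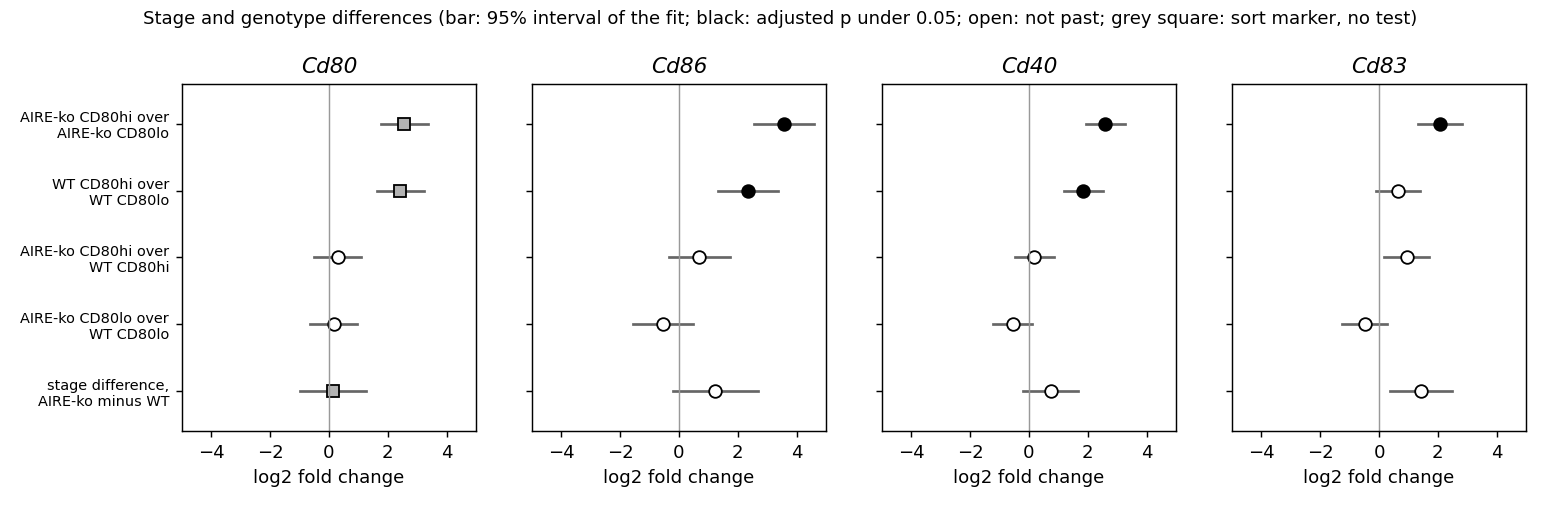
Log2 fold change of each gene (brighter probe set) in the 4 contrasts between CD80-sorted mTEC groups and in their interaction, with the 95% interval of the fit. Filled points passed the adjusted threshold: Cd86 and Cd40 passed between CD80hi and CD80lo mTEC of both genotypes and Cd83 in AIRE-ko mTEC, at 2.08. No contrast between AIRE-ko and WT passed, and grey squares are the untested sort marker.

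Between undivided mTEC and cTEC, Cd40 and Cd80 were higher in the mTEC group and Cd83 in the cTEC group. Cd40 averaged 629.4 ± 52.7 in undivided mTEC and 240.9 ± 34.8 in cTEC, a log2 fold change of 1.37 ± 0.31 (adjusted p = 0.00632). Cd80 averaged 35.4 ± 7.0 in mTEC and 10.95 ± 5.44 in cTEC, a change of 1.38 ± 0.37 (adjusted p = 0.020), and its second set changed by 3.04 ± 0.42 (adjusted p = 0.000193). Cd83 averaged 244.4 ± 61.4 in mTEC and 1553 ± 60.3 in cTEC, 6.35 times as high in cTEC, a change of -2.67 ± 0.35 (adjusted p = 0.000121). Cd86 did not overlap, with 57.4 and 50.3 in mTEC and 17.6 and 21.3 in cTEC, but its difference of 1.28 ± 0.48 did not pass (adjusted p = 0.0960). Cd86 did pass with the array number as a replicate block over all arrays (adjusted p = 0.0450), not with it over the undivided arrays alone (adjusted p = 0.0503), and passed in a fit of these groups alone (adjusted p = 0.0410). Thus 2 genes were higher in mTEC and 1 lower, against 11.1% and 4.25% of all tested probe sets (15.4% in all). Within arrays numbered 1 and numbered 2 the differences were 1.14 and 1.60 for Cd40, 1.92 and 0.84 for Cd80, 1.47 and 1.08 for Cd86, and -2.37 and -2.96 for Cd83.

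The Cd80 call between mTEC and cTEC was lost without cTEC array 1 or either mTEC array (1.02 to 1.74 over the 4 omissions, adjusted p up to 0.191), under quantile normalisation and in a fit of these groups alone. That of Cd40 was lost without cTEC array 2 or mTEC array 2 (adjusted p up to 0.0621). The Cd83 call held in each of these. The summed thymocyte markers were 370.4 to 380.5 in mTEC and 3605 to 6682 in cTEC, with all 10 above 17.3 on both cTEC arrays, and their part in the Cd83 difference was not tested. B cell markers summed to 695.0 to 810.2 in mTEC and 159.2 to 191.3 in cTEC. Dendritic cell markers summed to 1750 to 2482 in mTEC and 645.2 to 1042 in cTEC, and macrophage markers to 1317 to 1493 and 636.1 to 824.5. The part of such cells in the Cd40, Cd80 and Cd86 differences was not tested. The second Cd83 set was also dimmer in mTEC, by 1.81 ± 0.62 on the log2 scale, and did not pass (adjusted p = 0.0645). It passed under quantile normalisation (adjusted p = 0.0439), with a constant of 17.3 (0.0393), in a fit of these groups alone (0.0222) and with the replicate block over all arrays (0.0483) or the undivided ones (0.0432).

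Against dendritic cells, undivided mTEC had less Cd86 and Cd83. Cd86 averaged 53.9 ± 5.02 in mTEC and 428.0 ± 168.8 in tDC, 7.95 times as high in tDC, a log2 fold change of -2.83 ± 0.48 (adjusted p = 0.000511). Cd83 averaged 244.4 ± 61.4 in mTEC and 1856 ± 397.2 in tDC, 7.59 times as high in tDC, a change of -2.91 ± 0.35 (adjusted p = 3.13e-05). Cd40 did not overlap but did not pass, at -0.46 ± 0.31 (adjusted p = 0.337, interval -1.11 to 0.20). Cd80 overlapped, at 0.03 ± 0.37 (adjusted p = 0.968, interval -0.76 to 0.83). So 2 of 4 genes were lower in mTEC, against 7.58% of all tested probe sets that were lower and 16.8% that were higher (24.3% either way). Within arrays 1 and 2 the differences were -2.33 and -3.32 for Cd86, -2.87 and -2.94 for Cd83, -0.52 and -0.39 for Cd40 and 0.26 and -0.20 for Cd80. The second Cd86 set read 17.0 and 1.3 in mTEC and 46.0 and 34.3 in tDC, given without a test because it passed the filter only through tDC and tMPh. The second Cd83 set did not pass (-1.20 ± 0.62, adjusted p = 0.195). Thymocyte markers summed to 370.4 to 380.5 in mTEC and 2529 to 2655 in tDC, of which Cd8a gave 79.2 and 47.1 in mTEC and 1422 and 1107 in tDC, Cd8b1 46.3 and 55.2 in mTEC and 594.5 and 530.4 in tDC, and Dntt 175.5 and 174.0 in mTEC and 273.3 and 664.1 in tDC. Rag1 read 14.7 and 25.7 in mTEC and 77.9 and 184.2 in tDC, and Cd3e and Rag2 were at or below 17.3 in both. Cd3d read 4.9 and 9.9 in mTEC and 28.6 and 24.1 in tDC. Cd8a was the largest value in the tDC sum, and whether it came from thymocytes or from tDC was not tested. The part of thymocytes in the Cd86 and Cd83 differences was not tested either.

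The CD80hi fraction, set against tDC directly, had lower Cd86 and Cd83 as well. Cd86 averaged 112.9 ± 13.6 in WT CD80hi mTEC and 428.0 ± 168.8 in tDC, a change of -1.83 ± 0.48 (adjusted p = 0.0106). This call was lost without CD80hi array 1 or tDC array 2 (adjusted p up to 0.0899). Cd83 averaged 361.3 ± 37.0 in CD80hi mTEC and 1856 ± 397.2 in tDC, a change of -2.33 ± 0.35 (adjusted p = 0.000195). Cd40 did not pass, at 712.8 ± 84.1 in CD80hi mTEC and 863.6 ± 15.1 in tDC (-0.28 ± 0.31, adjusted p = 0.565, interval -0.94 to 0.38). Hence 2 of 3 tested genes were lower, against 9.45% of all tested probe sets that were lower and 18.3% that were higher (27.8% either way). The sort marker Cd80 was 1.0 log2 units higher in CD80hi mTEC, without a test. CD80-sorted and undivided arrays differed in their highest signals, so in this contrast the set of arrays and the cell type cannot be told apart. Thymocyte markers summed to 284.6 to 542.0 in WT CD80hi mTEC and 2529 to 2655 in tDC, and their part was not tested.

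Macrophages differed from mTEC in all 4 genes. Cd40 averaged 629.4 ± 52.7 in mTEC and 74.6 ± 21.7 in tMPh, 8.44 times as high in mTEC (3.02 ± 0.31, adjusted p = 7.43e-06). Cd80 averaged 35.4 ± 7.0 in mTEC and 12.7 ± 0.49 in tMPh (1.19 ± 0.37, adjusted p = 0.0323). Cd86 averaged 53.9 ± 5.02 in mTEC and 545.7 ± 338.8 in tMPh, 10.1 times as high in tMPh (-3.08 ± 0.48, adjusted p = 0.000292). Cd83 averaged 244.4 ± 61.4 in mTEC and 1181 ± 243.2 in tMPh (-2.26 ± 0.35, adjusted p = 0.000308). That is 2 genes higher and 2 lower in mTEC, against 14.6% and 7.37% of all tested probe sets (22% either way). Within arrays 1 and 2 the differences were 2.66 and 3.39 for Cd40, 1.40 and 0.98 for Cd80, -2.32 and -3.84 for Cd86 and -2.21 and -2.30 for Cd83. The Cd80 call was lost without any 1 of the 4 arrays (adjusted p up to 0.188), under quantile normalisation, without the filter and in a fit of these groups alone. Its second set passed (1.45 ± 0.42, adjusted p = 0.0235) and lost the call under quantile normalisation, in a fit of these groups alone and without mTEC array 1 or either tMPh array (adjusted p up to 0.320). The second Cd86 set read 17.0 and 1.3 in mTEC and 25.9 and 79.5 in tMPh, again without a test, and that of Cd83 did not pass (adjusted p = 0.245). Thymocyte markers summed to 370.4 to 380.5 in mTEC and 2666 to 5949 in tMPh. Ccl25, a chemokine gene of thymic epithelium, read 1834 and 263.1 in tMPh. The part of thymocytes or of epithelial material in these differences was not tested.

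Dendritic cells and macrophages shared high Cd86 and Cd83 and differed in Cd40. Cd40 averaged 863.6 ± 15.1 in tDC and 74.6 ± 21.7 in tMPh, 11.6 times as high in tDC (3.48 ± 0.31, adjusted p = 9.30e-06). Cd80 did not overlap, with 32.9 and 35.5 in tDC and 12.3 and 13.0 in tMPh, and did not pass (1.16 ± 0.37, adjusted p = 0.0705). Quantile normalisation gave it an adjusted p of 0.0448 and the mean over both probe sets 0.0350. Its second set (1.39 ± 0.42, adjusted p = 0.0573) passed with the replicate block over all arrays (adjusted p = 0.0344) and over the undivided arrays (adjusted p = 0.0348). Cd83 did not pass (0.65 ± 0.35, adjusted p = 0.338, interval -0.11 to 1.40), nor did Cd86 (-0.25 ± 0.48, adjusted p = 0.855, interval -1.28 to 0.77). So 1 of 4 genes was higher in tDC, against 3.63% of all tested probe sets that were higher and 5.62% that were lower (9.25% either way). Within arrays 1 and 2 the differences were 3.18 and 3.78 for Cd40, 1.14 and 1.18 for Cd80, 0.66 and 0.64 for Cd83 and 0.01 and -0.52 for Cd86. Macrophage array 1 read 1834 for the thymic epithelial chemokine gene Ccl25, against 263.1 on array 2, and 20.4 and 13.9 in tDC. The part of this material in the macrophage values was not tested.

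**Figure D3:**
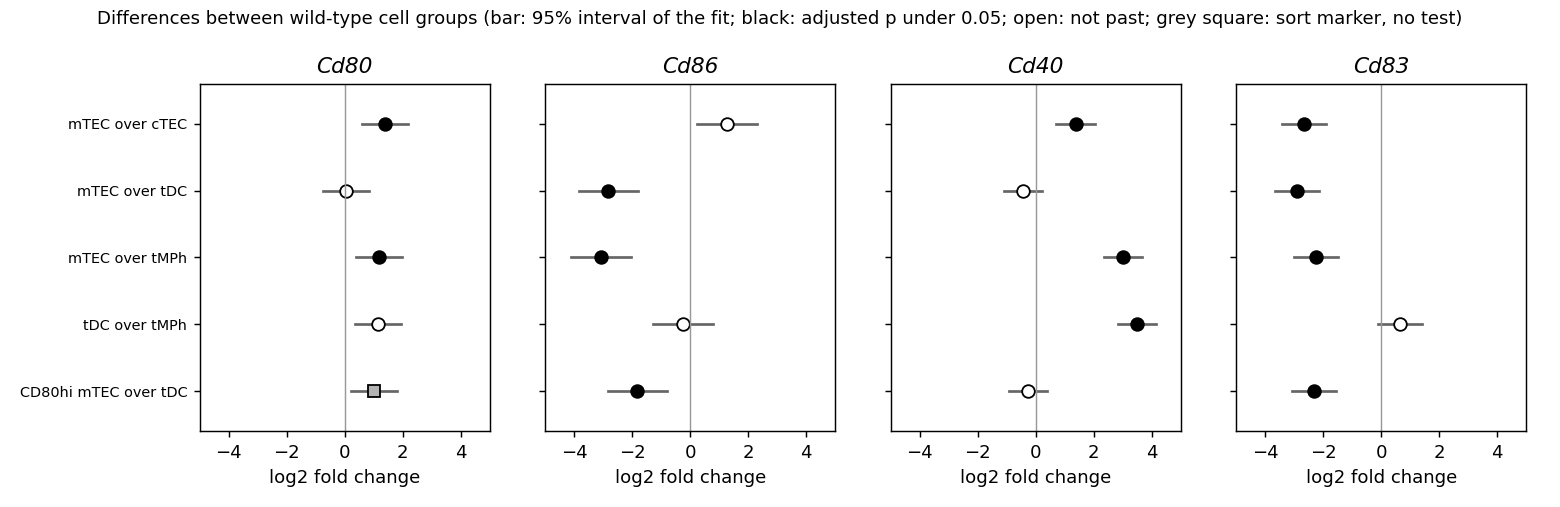
Log2 fold change of each gene (brighter probe set) between WT groups, with the 95% interval of the fit, filled where the adjusted threshold was passed. Cd86 and Cd83 lie left of 0 wherever mTEC are set against tDC or tMPh, and Cd40 lies at 3.02 and 3.48 where mTEC and tDC are set against tMPh. The contrasts share arrays.

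Genes of the same pathways were counted in 4 lists, in which no member above was included. Of 9 tested genes for other costimulatory and coinhibitory ligands, 2 rose and 1 fell in CD80hi against CD80lo WT mTEC, with a list median of 0.53 against -0.035 over all tested probe sets, of which 7.98% rose and 4.74% fell. The TNF-family ligand gene Cd70, whose product binds CD27, read 308.1 and 191.2 in CD80hi and 59.7 and 22.5 in CD80lo mTEC (2.56 ± 0.42, adjusted p = 0.000926). Tnfsf9, the ligand gene of 4-1BB, averaged 220.6 ± 30.1 in CD80hi and 45.7 ± 7.35 in CD80lo mTEC (2.16 ± 0.42, adjusted p = 0.00305). Lgals9, which encodes the lectin galectin-9, went the other way, with 133.8 and 152.5 in CD80hi and 635.6 and 867.5 in CD80lo mTEC (-2.34 ± 0.35, adjusted p = 0.000472). The same 3 genes were the ones called between fractions of AIRE-ko mTEC, at 2.75, 3.11 and -2.61 for Cd70, Tnfsf9 and Lgals9.

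Among 9 tested receptors that T cells carry, 1 rose with the CD80hi fraction of WT mTEC (list median 0.68), a share near the 7.98% over all tested probe sets. This was Tnfrsf9, the gene of 4-1BB itself, at 54.7 and 57.9 in CD80hi and 12 and 9.4 in CD80lo mTEC (1.98 ± 0.47, adjusted p = 0.0121). Its call was lost without any 1 of the 4 arrays (adjusted p up to 0.0973). Cd28 and Ctla4, the receptors of CD80 and CD86, did not pass in any of the 10 contrasts. In AIRE-ko mTEC, Tnfrsf9 (3.49 ± 0.47, adjusted p = 0.000233) and the inhibitory receptor gene Lag3 rose with CD80hi.

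Of 19 tested genes of CD40, RANK and lymphotoxin receptor signalling, 2 rose and none fell in CD80hi against CD80lo WT mTEC (list median 0.47), again near the 7.98% over all tested probe sets. Lta, the lymphotoxin alpha gene, gave 164.9 and 135.7 in CD80hi and 4.7 and 2.9 in CD80lo mTEC, a change of 4.17 ± 0.43 (adjusted p = 2.97e-05). Its probe set carries the suffix for shared probes. Nfkbib, an inhibitor of NF-kB, gave 231.0 and 207.1 in CD80hi and 84.9 and 61.4 in CD80lo mTEC (1.54 ± 0.35, adjusted p = 0.00956), a call lost without CD80lo array 2 or either CD80hi array (adjusted p up to 0.113). In AIRE-ko mTEC 5 of the 19 rose and 1 fell, against 5.93% and 6.87% of all tested probe sets. Those that rose were Lta, Nfkbib, the adaptors Traf1 and Traf6 and the ubiquitin ligase Birc2, and the one that fell was Traf5.

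Of 10 tested genes for MHC class II and its control, 1 rose in CD80hi WT mTEC (list median 0.63), also near the 7.98% over all tested probe sets. H2-Oa, a subunit of H2-O, which restrains peptide loading by H2-M, read 1530 and 1055 in CD80hi and 289.1 and 236.3 in CD80lo mTEC (2.26 ± 0.56, adjusted p = 0.0141), lost without CD80hi array 1 or either CD80lo array (adjusted p up to 0.134). In AIRE-ko mTEC H2-Oa, H2-Ob, H2-DMb1 and H2-DMb2 rose with CD80hi, 4 of the 10 against 5.93% of all tested probe sets. H2-Ob, the partner of H2-Oa, gave 405.9 and 219.1 in AIRE-ko CD80hi and 15.5 and 31.4 in AIRE-ko CD80lo mTEC (3.48 ± 0.50, adjusted p = 0.000363). Between AIRE-ko and WT mTEC no gene of the 4 lists passed in limma, in CD80hi cells, in CD80lo cells or in the interaction. At an unadjusted p under 0.05, 2 of the 47 were higher and 2 lower in CD80hi cells, 2 higher and 0 lower in CD80lo cells, and 3 higher and 2 lower in the interaction. At that limit, 1076, 517 and 775 of all 9319 tested probe sets were counted in these contrasts, in either direction.

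Between mTEC and cTEC the ligand list had 3 genes higher (Tnfsf9, Cd70 and the nectin gene Nectin2) and 1 lower (Lgals9) of 9, where 11.1% of all tested probe sets were higher and 4.25% lower. Tnfsf9 averaged 220.6 ± 10.8 in mTEC and 15.8 ± 11.5 in cTEC (3.57 ± 0.42, adjusted p = 4.80e-05). Of the T cell receptors, Tnfrsf9 (2.41 ± 0.47, adjusted p = 0.00269) and Tnfrsf4 were higher, and Cd27 and the adhesion receptor Cd2, both of T cells, were lower. Cd2 read 5.7 and 12.3 in mTEC and 59.4 and 99.8 in cTEC (-2.61 ± 0.61, adjusted p = 0.00864), lost without cTEC array 2 or mTEC array 1. Of the signalling genes 3 were higher (Lta, Traf1 and Nfkb2) and 1 lower (Ltbr). Lta averaged 107.2 ± 8.41 in mTEC and 4.25 ± 1.48 in cTEC (3.64 ± 0.43, adjusted p = 5.36e-05). The adaptor gene Traf1 averaged 328.1 ± 64.6 in mTEC and 30.7 ± 24.5 in cTEC (3.42 ± 0.73, adjusted p = 0.00508), lost without cTEC array 1. Of the MHC class II genes, H2-Ob was higher (2.06 ± 0.50, adjusted p = 0.0108), lost without cTEC array 1 or mTEC array 1.

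Between mTEC and tDC, 2 of 9 ligands were higher in mTEC and 1, Cd48, was lower, where 16.8% of all tested probe sets were higher and 7.58% lower. Cd48, a ligand of CD2 and CD244, averaged 16.5 ± 4.60 in mTEC and 658.7 ± 13.5 in tDC (-4.98 ± 0.47, adjusted p = 3.88e-06). Cd70 averaged 225.5 ± 28.2 in mTEC and 84.4 ± 20.6 in tDC (1.38 ± 0.42, adjusted p = 0.0260) and Lta 107.2 ± 8.41 in mTEC and 34.3 ± 13.5 in tDC (1.56 ± 0.43, adjusted p = 0.0160). Both calls were lost without tDC array 2 or either mTEC array, and that of Lta with a constant of 1 or the mean over its probe sets. Lower in mTEC were Traf5 (-1.30 ± 0.28, adjusted p = 0.00330), the receptor gene Tnfrsf18 (-1.79 ± 0.57, adjusted p = 0.0317), and H2-DMa, a subunit of H2-M (-1.91 ± 0.41, adjusted p = 0.00303). The Tnfrsf18 call was lost without tDC array 1 or either mTEC array and in a fit of these groups alone. Against tMPh, mTEC had more called genes than against any other group: 5 higher and 3 lower of 9 ligands, 2 and 2 of 9 receptors, 8 and 0 of 19 signalling genes and 6 and 0 of 10 MHC class II genes, where 14.6% of all tested probe sets were higher and 7.37% lower.

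Dendritic cells exceeded macrophages in 15 of the 47 genes and fell below them in 0, against 3.63% and 5.62% of all tested probe sets. Without adjustment, the limma p fell under 0.05 with 24 of the 47 brighter in tDC and 2 dimmer. That limit was met by 1887 of the 9319 tested probe sets, in either direction. The called genes were 2 of 9 ligands, 1 of 9 receptors, 6 of 19 signalling genes and 6 of 10 MHC class II genes. Traf1 read 1333 and 796.3 in tDC and 67.5 and 5.2 in tMPh (5.27 ± 0.73, adjusted p = 0.000328). Relb, an NF-kB subunit, read 1233 and 509.1 in tDC and 158.0 and 80.2 in tMPh (2.76 ± 0.56, adjusted p = 0.00563). The class II chain gene H2-Ab1 averaged 3102 ± 64.3 in tDC and 515.6 ± 344.2 in tMPh (2.76 ± 0.39, adjusted p = 0.000341), and H2-Ob 203.1 ± 30.3 in tDC and 12.1 ± 11.7 in tMPh (3.81 ± 0.50, adjusted p = 0.000200). The receptor gene Tnfrsf4 (2.98 ± 0.51, adjusted p = 0.00157), Tnfsf9 (2.30 ± 0.42, adjusted p = 0.00249) and Cd70 (1.83 ± 0.42, adjusted p = 0.0116) were also higher in tDC. In a fit of these groups alone Traf1, Relb, H2-Ab1, Tnfsf9 and Cd70 lost their calls, and Relb and Cd70 also did so without tDC array 1.

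**Figure D4:**
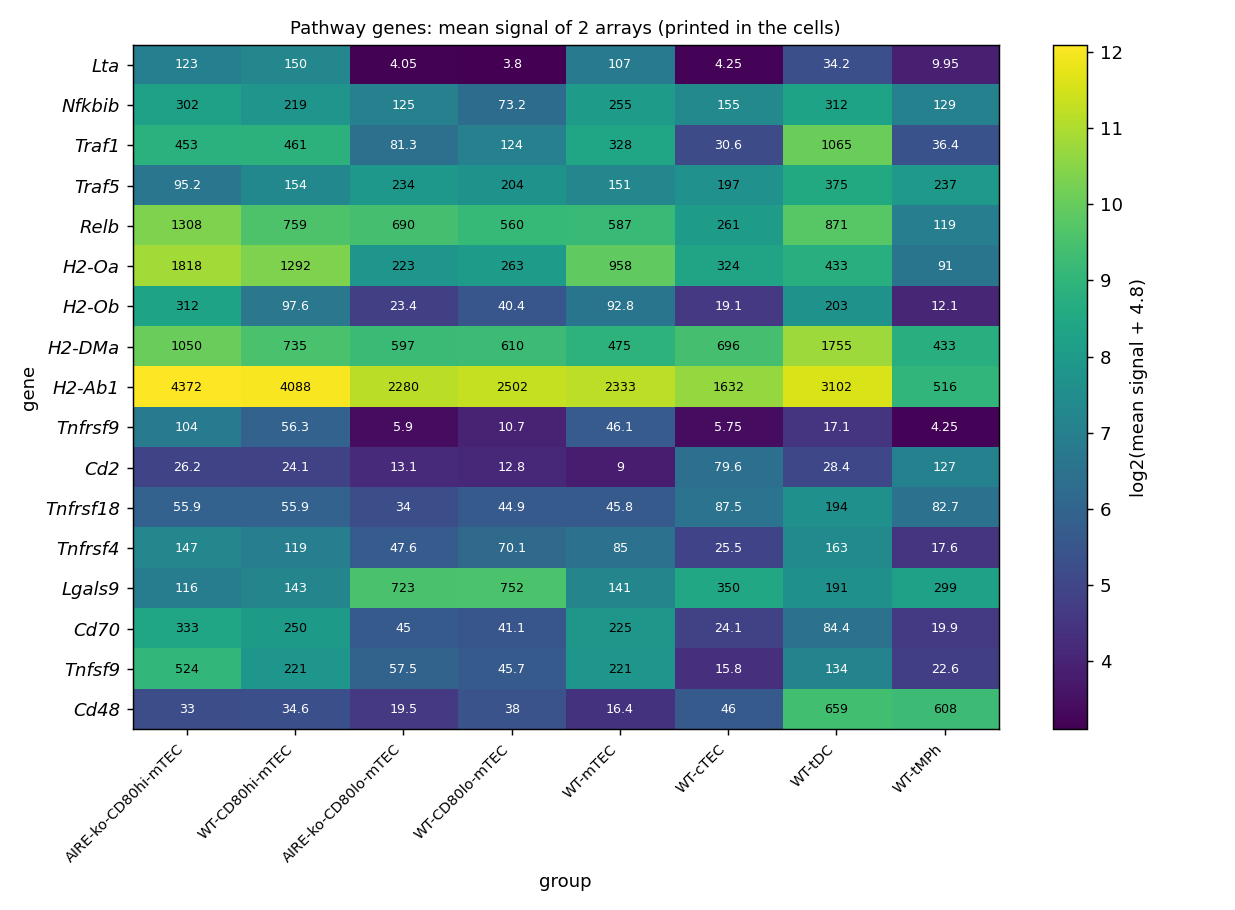
Mean signal of 2 arrays for the 17 pathway genes named by rule, printed in each cell and coloured by log2(mean signal + 4.8), with CD80-sorted groups at the left. Lta, Cd70, Tnfsf9 and Tnfrsf9 are brighter in CD80hi than in CD80lo mTEC of either genotype, and Lgals9 is dimmer.

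Over the 16 arrays the 4 genes did not follow 1 pattern. The log2 signals of Cd80 and Cd40 had a Pearson r of 0.82, those of Cd86 and Cd83 0.58, of Cd80 and Cd86 0.48, of Cd86 and Cd40 0.25, of Cd40 and Cd83 0.11, and of Cd80 and Cd83 0.05. Both probe sets of a gene had an r of 0.93 for Cd80, 0.92 for Cd86 and 0.74 for Cd83. These values describe 8 groups of 2 arrays, with all genes read from the same arrays, and carry no test.

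The genes most like each member over the same 16 arrays were named by their r. For Cd80 they were Ncf1, a subunit of the phagocyte NADPH oxidase (0.93), the sulfate-donor synthase Papss2 (0.93), the lysosomal cholesterol carrier Npc2 (0.92) and Lta (0.92). Ncf1 averaged 140.0 ± 79.6 in AIRE-ko CD80hi and 76.9 ± 1.91 in WT CD80hi mTEC, against 3.35 ± 0.35 in AIRE-ko CD80lo and 3.85 ± 0.49 in WT CD80lo mTEC. For Cd86 they were Fnbp1 (0.96), the inositol phosphatase SHIP1 gene Inpp5d (0.93), Ostf1 (0.92) and the interleukin-10 receptor gene Il10ra (0.91). Il10ra, like Cd86, was brightest in tDC (268.5 ± 152.2) and tMPh (334.0 ± 147.0), with 55.7 ± 5.16 in WT CD80hi and 14.2 ± 11.8 in WT CD80lo mTEC.

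For Cd40 the closest genes were the G-protein subunit gene Gnb4 (0.97), the granzyme B inhibitor Serpinb9 (0.92), tapasin, encoded by Tapbp and part of MHC class I peptide loading (0.92), and the calcium-binding protein gene Sri (0.89). Serpinb9 averaged 1801 ± 147.2 in AIRE-ko CD80hi, 1377 ± 92.4 in WT CD80hi, 138.4 ± 17.5 in AIRE-ko CD80lo and 172.5 ± 16.5 in WT CD80lo mTEC, and 806.9 ± 99.8 in tDC against 28.9 ± 0.64 in tMPh. For Cd83 they were the nuclease inhibitor Dffa (0.91), the histone chaperone Asf1b (0.91), the cyclin Ccnd3 (0.90) and Wdfy2 (0.89). Ccnd3 averaged 347.6 ± 230.0 in undivided mTEC, 946.2 ± 158.3 in cTEC, 1044 ± 152.9 in tDC and 943.7 ± 470.5 in tMPh. Nothing is said here of shared function or control.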

How the data were processed

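Total RNA of sorted thymic cells was measured in 16 samples, placed in 8 groups of 2 by their titles. The authors deposited 1 linear intensity per probe set and array; their software is not given in the sources used here. Trimmed means (2%) lay at 100.1 on every array, so the values were used as deposited. The 66 control probe sets and 3103 others not above 17.3 (40th percentile) on at least 2 arrays were left out, which left 9319. With control probe sets left out, 10833 probe sets had 1 symbol in the annotation, 396 several and 1193 none listed. Over the whole annotation, controls included, 10839 entries with 1 symbol took that of a GRCm38.p6 gene table and 16 kept their own.

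Tests were 2-sided contrasts of 8 group means in limma 3.58.1 (R 4.3.3, lmFit, eBayes with trend, 8 residual and 5.97 prior degrees of freedom) on log2(signal + 4.8, the 20th percentile), with Benjamini-Hochberg adjustment over all tested probe sets and a threshold of 0.05. Figures were drawn with matplotlib 3.10.9. The brightest probe set stood for a gene.

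The members, lists, tests and naming rule were chosen with earlier results of these data known. Besides the members and Aire, named genes were the 2 with the smallest p per list past the threshold in 5 contrasts, and the 4 with the highest Pearson r with each member. Genes that only spell out a count, marker genes, Cd28 and Ctla4 were named after their values were seen.

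On simulated data for WT CD80hi against WT CD80lo mTEC (9319 probe sets, 50 planted changes per size) the fit found 8% of those of log2 size 1, 66% of size 2, 92% of size 3 and 96% of size 4, with 7 false among 138 calls. The planted changes were far fewer than the 1186 calls in the data, and noise was drawn independently for each probe set. These rates therefore need not hold for the data. Alternatives were quantile normalisation, constants of 1 and 17.3, no filter and a limit of 50, no trend, the mean over probe sets, only the groups compared, a replicate block by sample number, and omission of each array in turn.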

Additional observations from a re-analysis of the deposited data

How the results depend on the processing

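No called member or pathway gene changed sign under any alternative that was run. Differences that did not pass, or had no test, changed sign for Cd80 in mTEC against tDC under quantile normalisation (-0.40, second set -0.35), for the second Cd80 set in AIRE-ko against WT CD80hi mTEC (-0.037) and Cd86 in CD80lo mTEC (0.096) without array 1 of both AIRE-ko groups, and for the interaction of Cd80 with the mean over probe sets (-0.057). With single arrays left out, differences without a call that changed sign ranged, for Cd80, from -0.19 to 0.51 in AIRE-ko against WT CD80lo mTEC, from -0.21 to 0.48 in the interaction and from -0.15 to 0.21 in mTEC against tDC (second set -0.70 to 0.82). The second Cd80 set ranged from -0.037 to 0.15 in AIRE-ko against WT CD80hi mTEC. Cd86 ranged from -1.19 to 0.096 in AIRE-ko against WT CD80lo mTEC and from -0.93 to 0.42 in tDC against tMPh (second set -0.92 to 0.54), and the second Cd83 set from -1.37 to 0.31 in WT CD80hi against CD80lo mTEC and from -0.46 to 0.63 in tDC against tMPh. Cd80 in mTEC against cTEC fell short under quantile normalisation (1.09, adjusted p = 0.0577) and in a fit of only the groups compared (1.38, adjusted p = 0.0645), and in mTEC against tMPh under quantile normalisation (0.85, adjusted p = 0.111), without the filter (1.19, adjusted p = 0.0545) and with only the groups compared (1.19, adjusted p = 0.0901). Cd80 in tDC against tMPh passed under quantile normalisation (1.25, adjusted p = 0.0448) and with the mean over probe sets (1.27, adjusted p = 0.0350). Cd86 in mTEC against cTEC passed with only the groups compared (1.28, adjusted p = 0.0410) and with the replicate block over all arrays (1.28, adjusted p = 0.0450). Same-numbered samples deviated together with a Pearson r of 0.0265 to 0.526 over 28 pairs of groups, of 0.279 to 0.526 over the 6 pairs of undivided groups and of 0.517 between the AIRE-ko groups; the labels do not state that the numbers pair samples. The block over undivided arrays left Cd86 in mTEC against cTEC short of the threshold (adjusted p = 0.0503). The cause of these changes was not tested.

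Counts of called probe sets that moved by over 1.5 times were as follows. With a constant of 1 they were 180 for AIRE-ko against WT in CD80hi mTEC (284 in the reported fit), 18 in CD80lo mTEC (30) and 44 for the interaction (121); with a constant of 17.3, 47 in CD80lo mTEC and 216 for the interaction. With only the groups compared they were 2456 for CD80hi against CD80lo in WT (1186), 629 in AIRE-ko (1193), 16 for AIRE-ko against WT CD80lo, 1360 for mTEC against tMPh (2048) and 180 for tDC against tMPh (862), and with only the CD80-sorted groups 77 for the interaction. The replicate block over all arrays gave 51 in CD80lo mTEC. Without array 1 of both AIRE-ko groups there were 157 for AIRE-ko against WT CD80hi, 532 between AIRE-ko fractions and 44 for the interaction.

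With each array left out in turn the counts ranged from 626 to 681 (WT fractions), 81 to 220 (AIRE-ko against WT CD80hi), 8 to 25 (CD80lo), 744 to 900 (AIRE-ko fractions), 34 to 99 (interaction), 860 to 946 (mTEC against cTEC), 566 to 786 (tDC against tMPh) and 1559 to 2173 (CD80hi mTEC against tDC). The member differences ranged from 2.09 to 2.59 for Cd86 between WT fractions, 1.02 to 1.74 for Cd80 and 1.23 to 1.52 for Cd40 in mTEC against cTEC, 1.01 to 1.37 for Cd80 in mTEC against tMPh and -2.24 to -1.42 for Cd86 in CD80hi mTEC against tDC. Where an arm kept 1 array, that array was assumed to vary like the other groups. Dim sets, under 17.3, limit what Cd80 can show in CD80lo mTEC, cTEC and tMPh.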
